A study of Drosophila melanogaster with 2 samples.

Results

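Of 24369 candidate regions found by chromatin immunoprecipitation with sequencing (ChIP-seq) of the transcription factor Crc in fly embryos, 2979 had their summit in a coding exon or a 3' untranslated region (3' UTR), away from gene starts. A candidate is a region that the authors' peak caller proposed before reproducibility was checked, and its summit is the position of the highest signal. A summit was counted when it fell in an annotated coding sequence or 3' UTR of a protein-coding transcript and more than 500 bp from every start of a protein-coding transcript. Coding sequence was given priority where both applied, which left 2195 coding and 784 3' UTR candidates, or 9.01% and 3.22% of the list. The other candidates had summits within 500 bp of a start (6786, called promoter candidates here), in introns (9737), in intergenic DNA (4178) or in other exons (689). Membership depends on position alone, so the signals described here did not enter the choice.

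The flies were Drosophila melanogaster of a strain in which a MiMIC insertion adds an enhanced green fluorescent protein (eGFP) exon within an intron of crc, so that the gene makes a Crc-eGFP fusion. Embryos of 0 to 24 h, males and females pooled and taken whole, formed 1 group of 2 biological replicates, and chromatin sheared by sonication to 200 to 800 bp was pulled down through the GFP tag. The whole animal mixes all embryonic tissues and stages, both replicates come from 1 tagged line, and neither the control file that the lists were called against nor any library from untagged embryos was analysed here. With 1 group, no comparison between conditions can be made, and the values below compare locations in the genome and the replicates.

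Crc, encoded by cryptocephal, is the fly counterpart of mammalian ATF4, a basic leucine zipper protein that switches on genes for making amino acids and folding proteins during the integrated stress response. Factors of this family bind short sites that lie mostly in promoters and enhancers. Coding exons carry the codons of a protein and are richer in G and C than the rest of the fly genome, while 3' UTRs are the transcribed ends of messenger RNAs that hold sites for RNA-binding proteins, microRNAs and polyadenylation, and are rich in A and T.

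The DNA at some of the strongest exon summits is shown first, because these few regions stand far above the other exon candidates in signal. The window of otp, the strongest of all, is not shown. All sequences are from Release 6 of the genome, the build dm6 of the files, on the plus strand and 5' to 3'. The first 4 are 30-base windows centred on the summits of the coding candidates of Pde1c (chr2L:11816582-11816611), l(3)mbn (chr3L:6124809-6124838), bif (chrX:11681715-11681744) and klar (chr3L:506235-506264). Capitals mark coding bases, and the bif window begins in the intron before its exon.
Pde1c summit: CTCCGCAGCTGGCTCACTCTGCTCGCCATC
l(3)mbn summit: GGTACATTTCCGGTTGGTGTATTCGCTGTC
bif summit: cagATTTCACAGAACCGGCGACAATCAGTA
klar summit: AGGTCGTCTTTGCCAGACGAACCCAGACCC
The next 4 are the same windows at the strongest 3' UTR candidates, those of by (chr3R:9528639-9528668), Cals (chr4:1113319-1113348), CG7872 (chrX:15579785-15579814) and APC7 (chrX:6599477-6599506), in lower case because they hold no coding base.
by summit: tataaacaaatatgaatcagtggcgtttcc
Cals summit: aaaactgctgcaatatgctttgttttattg
CG7872 summit: aaagcacgccacattcgcgtgtttcctaac
APC7 summit: tcctttatcatccattgtctaaaagtgaat
The last 5 hold, in capitals, a 9-letter element, AGNTGGCGC or its reverse complement. It was chosen after the strongest windows had been seen, and its counts are given below. The windows are at Pde1c (chr2L:11816529-11816557 and chr2L:11816558-11816586), klar (chr3L:506256-506284), Hr4 (chrX:2006000-2006028) and para (chrX:16458747-16458775).
Pde1c, first: gctggccgccAGGTGGCGCaattgtcccc
Pde1c, second: ttaggccgcaGCGCCATCTgccggctccg
klar: cccagacccaAGGTGGCGCtgctgtgcag
Hr4: ttcctcagtgGCGCCACCTgtatttagag
para: gcagtgcggaGCGCCATCTcgctctcttt

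Exon candidates were weak. The signal is the value the authors' caller gave each region, on a scale that is read within a list only. The median signal was 22.58 at coding candidates and 23.71 at 3' UTR candidates, against 25.79 in introns, 24.44 in intergenic DNA and 31.86 at promoters, in a list whose lowest value was 18.85. Of the coding candidates 68.7% had a signal under 25, and of the 3' UTR candidates 57.8%, against 45.1% of all candidates. Only 33 coding and 59 3' UTR candidates exceeded 40.

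Few passed the authors' reproducibility filter, whose accepted set is called the optimal peaks. Of the 2979 exon candidates 26 were optimal, or 0.873% (Wilson 95% interval 0.596 to 1.28), against a background of 9.93% of all candidates, 2420 of 24369. The optimal peaks are the strongest pooled candidates, with a lowest signal of 63.98, so this count and the medians above describe one property. The share was 0.228% in coding sequence, 5 candidates, and 2.68% in 3' UTRs, 21 candidates, with intervals of 0.0973 to 0.532 and 1.76 to 4.06 that did not overlap. It was 18.0% at promoters, 8.66% in introns and 6.46% in intergenic DNA. The intervals cover counting error only, and regions that lie side by side are not independent.

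The shortage was graded along the ranking. With the pooled list cut into 10 equal slices by signal, exon candidates made up 1.07% of slice 1, the strongest, 2.09% of slice 2, 14.4% of slice 5 and 18.2% of slice 10. Coding candidates rose from 0.205% of slice 1 to 13.8% of slice 10, and the replicates' own lists had the same order at their ends, from 1.17% to 16.2% in replicate 1 and from 0.167% to 13.6% in replicate 2. In replicate 1 the coding share had reached 8.47% in slice 2, where replicate 2 had 1.03%.

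**Figure D1:**
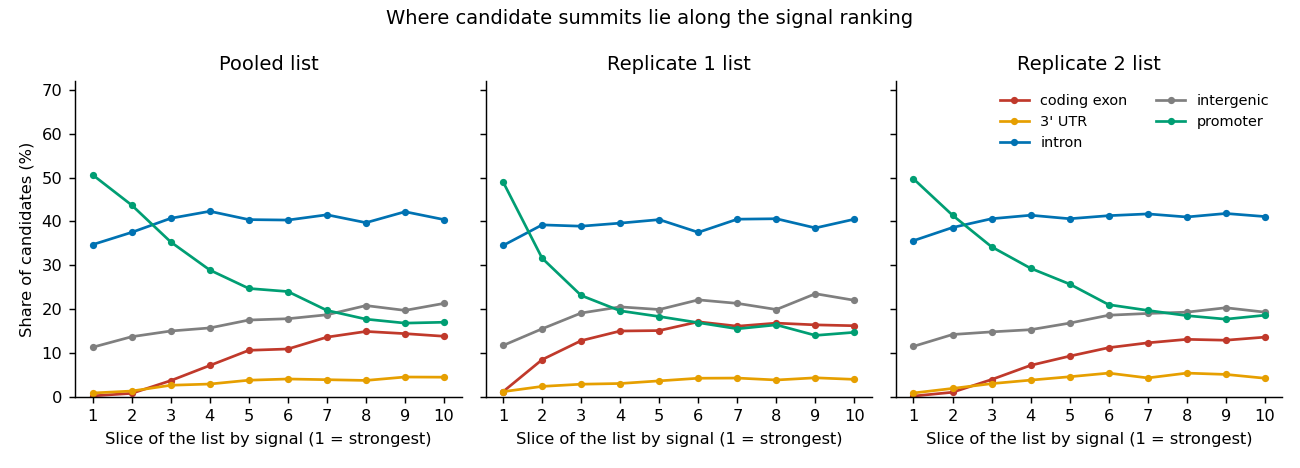
Share of candidates (%) with a summit in each kind of location (other exons not drawn), in 10 equal slices of the list from strongest to weakest signal, for the pooled list and for each replicate's own list. Coding exons rise from 0.205% to 13.8% of the pooled list while promoters fall, and the coding line climbs earlier in replicate 1 than in replicate 2.

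Measured against the DNA that could hold them, exons were not empty. Coding sequence more than 500 bp from a start spans 18.91 Mb and held 116 candidates per Mb, and 3' UTR sequence spans 6.083 Mb and held 129 per Mb. Intergenic DNA held 112 per Mb, introns 182 and promoter windows 443. Optimal peaks separated the locations more widely, with 0.264 per Mb in coding sequence, 3.45 in 3' UTRs, 7.24 in intergenic DNA, 15.8 in introns and 79.8 at promoters. In the pooled list exons thus held weak candidates at a density per counted base like that of intergenic DNA, and few strong ones. Gaps, repeats and other bases where reads cannot be placed were not taken out of these lengths. How far such bases lower the density of intergenic DNA was not tested. The likeness was partial in the replicates' own lists. Replicate 1 held 214 per Mb in coding sequence and 166 in 3' UTRs, against 157 in intergenic DNA. Replicate 2 held 134 and 190, against 136.

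The median signal changed little across the 500 bp limit. The 211 exon summits at 401 to 500 bp from a start, just outside the rule, had a median signal of 23.45, and the 181 at 501 to 600 bp, just inside it, had 22.72, with 1 optimal peak in each group. Candidates 5001 bp or more from a start had a median of 22.88. Density, in contrast, was lower away from starts. Coding sequence held 124.7 candidates per Mb with the limit at 200 bp, 116.1 at 500 bp and 105.5 at 1000 bp. In 3' UTRs these were 135.1, 128.9 and 123.4. The optimal share was 0.251% at 501 to 1000 bp and 1.18% at 1001 to 2000 bp.

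The strongest coding candidate lay in otp, which encodes the homeodomain transcription factor Orthopedia of the embryonic nervous system. Its pooled signal was 311.9, rank 101 of the whole list, and it was 121.6 in replicate 1 and 184.6 in replicate 2, ranks 114 and 108. The region (chr2R:20884489-20884700) was 212 bp wide, its summit was 4656 bp from the nearest start, and the strongest candidate at an otp start had a signal of 20.7. It stood alone at this height among coding candidates, and it was high in both replicates.

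The next coding candidates were lower, and each of the 5 optimal ones was listed in both replicates. Pde1c, which encodes a calcium- and calmodulin-dependent cyclic nucleotide phosphodiesterase, had 155.6, with 73.62 in replicate 1 and 84.52 in replicate 2. The candidate in l(3)mbn had 115.2, with 61.99 and 51.45 in the replicates. That of bif, which encodes the cytoskeletal protein Bifocal of photoreceptor cells, had 95.33, with 46.31 and 50.28. The candidate in klar, the gene of a KASH-domain protein that positions nuclei and lipid droplets, had 72.22, with 34.98 and 35.15. The ratio of replicate 2 to replicate 1 signal in these 5 ran from 0.83 to 1.52 with a median of 1.09, and both replicates ranked them in the same order.

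Below these 5 the signal dropped to 57.06 in Atg3, whose product is the conjugating enzyme that attaches Atg8 to lipid in autophagy, with 32.81 in replicate 1 and 21.42 in replicate 2. The strongest after it lay in Vrp1 (56.36) and spir (53.58), which act on actin assembly, in Tlk (51.92), a chromatin-linked kinase, and in bora (51.47), an activator of Aurora A kinase. Next came the histone variant gene His2Av (48.26), the phosphatase 1 targeting subunit PNUTS (47.9), the unfolded protein response factor Xbp1 (46.37), CG8321 (44.99) and Ctr9 (44.82), a subunit of the Paf1 complex. All 10 of these were listed in both replicates, and none was optimal. Their replicate signals ran from 16.02 to 32.81, far under those of the otp and Pde1c regions.

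The strongest 3' UTR candidate lay in by, which encodes tensin, a protein of integrin adhesions. Its signal was 231.7, rank 203, with 93.7 in replicate 1 and 135.6 in replicate 2, and its region was 143 bp wide. Cals, the gene of calsyntenin, followed with 221.9, from 83.33 and 132.0 in the replicates. CG7872 had 184.9, from 85.38 and 94.82, and its region was 136 bp wide. APC7, which encodes a subunit of the anaphase-promoting complex, had 169.8, from 75.4 and 91.69. These 4, like the otp region, ranked among the strongest 500 of each replicate's list except APC7 in replicate 2, at rank 522.

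Narrow regions marked the leaders. Most regions were 400 bp wide, and only 4 exon candidates were narrower than 390 bp, those of otp, by, Cals and CG7872. Across the pooled list 317 regions were that narrow and 315 of them were optimal, which is 13% of the optimal peaks.

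In the rest of the optimal 3' UTR group, stas, a gene first known from motor circuits, had 131.7 from 50.19 and 85.17 in the replicates. The gene pros, for the homeodomain factor Prospero of neuroblast daughters, had 90.29, from 55.72 and 37.08. Hr4, a nuclear receptor gene of the ecdysone response, had 88.97 from 41.66 and 41.97, and NetB, for the axon guidance ligand Netrin-B, had 71.68 from 35.94 and 35.28. Myd88, the adaptor of Toll receptors, had 74.59 from 40.45 and 35.72. The 3' UTR candidates of pros, CG1888 (38.26 and 27.88) and Myd88 were higher in replicate 1, as was that of NetB by less than 1 unit, while the other 16 optimal ones with both signals were higher in replicate 2.

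Some optimal 3' UTR candidates ranked lower in replicate 1 than in replicate 2. In CG9837 the signal was 13.22 in replicate 1, rank 16673, and 53.33 in replicate 2, rank 1403. TAF1B, an RNA polymerase I factor gene, had 14.51 and 57.25, ranks 12906 and 1236. Bre1, for a histone H2B ubiquitin ligase, had 17.59 and 44.71, ranks 7401 and 1899. Tctp, for the translationally controlled tumour protein, had 25.59 and 62.92, ranks 2887 and 1039. The ratio of replicate 2 to replicate 1 ran from 0.665 to 4.04 over the 20 optimal 3' UTR candidates listed in both, with a median of 1.38, close to the 1.47 of the 2264 other optimal peaks. One optimal 3' UTR candidate, in CG33307, had 83.38 in replicate 2 and no replicate 1 summit within 100 bp. A second candidate 201 bp from it, with a pooled signal of 61.98, had 51.77 in replicate 1 and 20.08 in replicate 2, so the replicates placed their summit at different points of one stretch. The remaining optimal 3' UTR candidates lay in CG5895 (95.28), CG14440 (95.04), CG14505 (92.83), the proteasome activator gene REG (89.82), dao (75) and CG8206 (73.95).

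**Figure D2:**
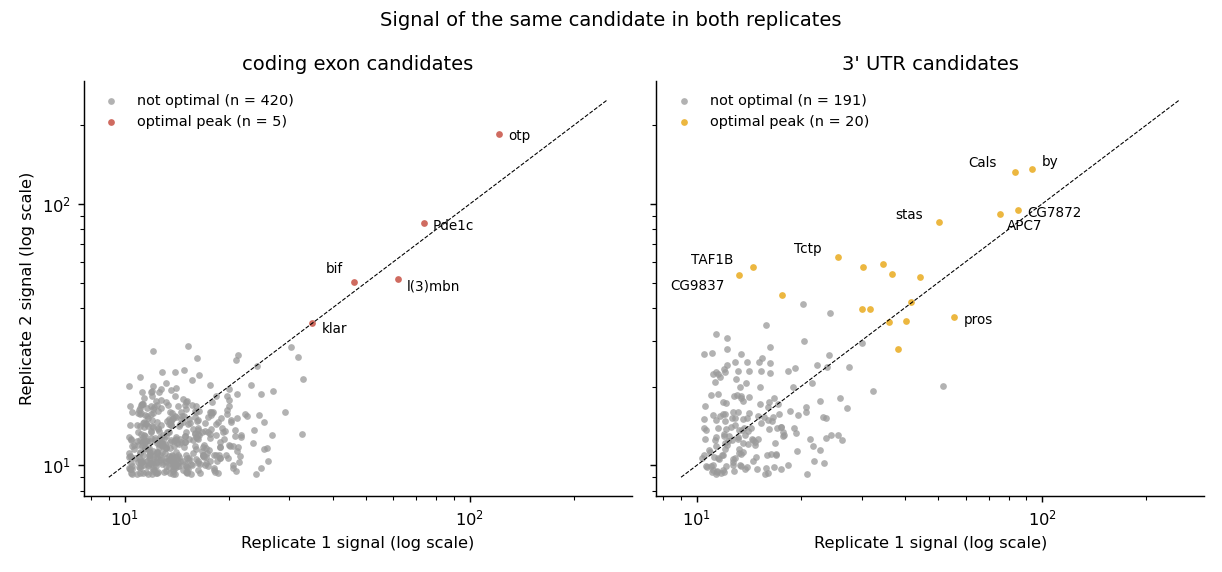
Signal in replicate 1 (x) and replicate 2 (y), both on log scales, for the coding and 3' UTR candidates that had a summit within 100 bp in both replicate lists. The dashed line is equality of the deposited values, which have no known common scale. The 5 optimal coding regions lie along the line from klar (34.98 and 35.15) to otp (121.6 and 184.6), while CG9837 and TAF1B lie far above it and the other regions form a cloud near the lower limit of the lists.

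The replicates shared few exon candidates. A coding candidate had a summit within 100 bp in both replicate lists in 425 cases, 19.4% (17.8 to 21.1), and a 3' UTR candidate in 211 cases, 26.9% (23.9 to 30.1), against a background of 35.6% of all candidates and 45.8% at promoters. Replicate 1 listed 61.5% of the coding and 55.1% of the 3' UTR candidates, against 61.1% of all. Replicate 2 listed 43.9% and 58.5%, against 64.7% of all. Set against all candidates, the coding share of replicate 2 was lower by more than the intervals (41.9 to 46 against 64.1 to 65.3). That of replicate 1 was at its background. All candidates are stronger, with a median signal of 26.09 against 22.58 in coding sequence. Shares at equal signal were not compared, so the gap cannot be assigned to 1 replicate.

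Regions found in 1 replicate only were the weaker ones. In coding sequence 925 candidates were listed by replicate 1 alone, with a median pooled signal of 22.09, and 539 by replicate 2 alone, with 22.15, against 27.24 for the 425 listed by both. The 306 listed by neither had 20.53. In 3' UTRs the medians were 22.88 for 221 candidates of replicate 1 alone, 22.74 for 248 of replicate 2 alone and 30.62 for the 211 of both. Among the strongest 100 candidates, 70 in coding sequence and 74 in 3' UTRs were in both lists.

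Where both replicates listed a region, they ordered coding candidates poorly. The rank correlation of the replicate signals was 0.158 over 425 coding candidates and 0.365 over 211 3' UTR candidates, against 0.626 in introns, 0.716 at promoters and 0.667 over 8683 candidates. These are descriptions across regions of the same 2 libraries, and most exon candidates span a narrow range of signal, which lowers a rank correlation. The deposited signal was higher in replicate 2 at 32.7% of the coding candidates, 49.8% of the 3' UTR candidates and 63.3% of all candidates with both. The lists have no known common scale, so only the difference between locations is read.

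The replicates' own lists, of 30000 regions each, differed in the same direction. Applying the rule to them gave 4054 coding candidates in replicate 1 and 2543 in replicate 2, which is 13.5% (13.1 to 13.9) and 8.48% (8.17 to 8.8) of the lists. For 3' UTRs the order was the other way, 1011 (3.37%) and 1157 (3.86%). The median GC content within 100 bp of the summit over each whole list was 42.3% in replicate 1 and 39.8% in replicate 2. These medians include the coding candidates themselves. Without exon candidates they were 40.8% and 38.8%, so the list with more coding candidates was also richer in GC elsewhere. The part of base composition in that difference was not tested, and the GC of the reads was not measured.

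Coding candidates lay in GC-rich stretches of coding sequence. Their median GC content was 55.2%, against 52.2% at every 50th eligible coding base, and 25.1% of them had 60% GC or more against 11.6% of the positions. The 3' UTR candidates had a median of 37.3% against 34.8%. By contrast, the optimal 3' UTR candidates had 34.8% and the other optimal peaks 35.8%, and of the 5 optimal coding candidates l(3)mbn (38.8%) and bif (32.3%) were far below the coding median while Pde1c (65.2%) was above it.

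In every list the density of coding candidates was highest in the GC-richest class. In stretches of 40 to 50% GC the pooled list held 86.9 per Mb, replicate 1 held 163 and replicate 2 held 111. At 60% GC or more these were 250, 391 and 231. Replicate 1 held more coding candidates per Mb than replicate 2 in each GC class from 30% upwards, including 182 against 111 at 50 to 55%. In 3' UTRs under 30% GC the density was 59.4 pooled, 75.5 in replicate 1 and 128 in replicate 2, against 144, 181 and 215 at 30 to 40%.

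**Figure D3:**
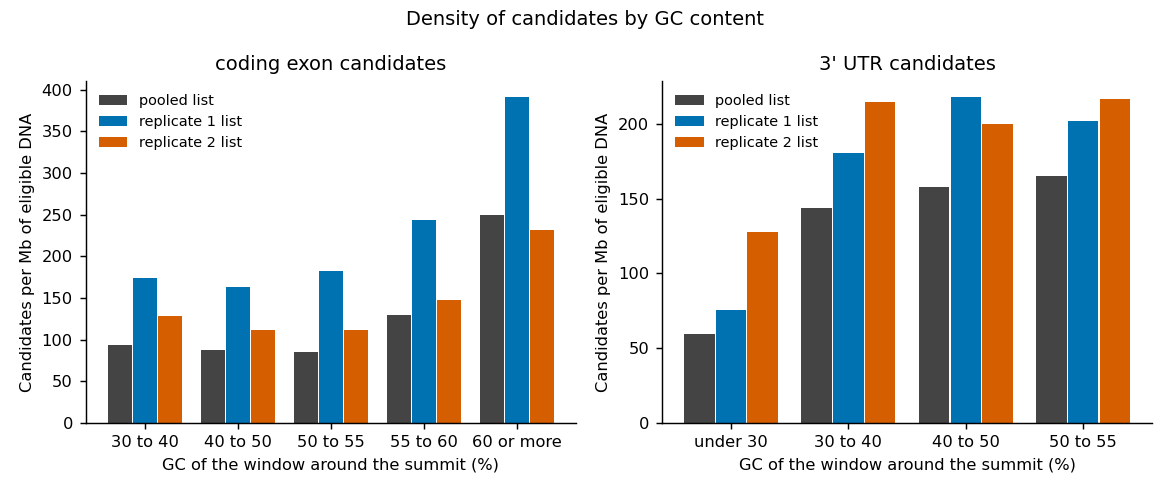
Candidates per Mb of eligible coding or 3' UTR DNA (bars from 0), by GC content of the 100 bp to each side, in the pooled list and in each replicate's list; classes with fewer than 20 regions in any list are left out. Coding density is highest at 60% GC or more (250 pooled, 391 in replicate 1, 231 in replicate 2), and replicate 1 exceeds replicate 2 in all 5 coding classes shown.

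Summits were not gathered at exon or transcript ends. Of the coding summits 17.4% (15.8 to 19) lay within 50 bp of an intron edge, where 18.3% of eligible coding bases lie. Of the 3' UTR summits 22.3% (19.5 to 25.4) lay within 100 bp of a transcript end, where 25.7% of eligible 3' UTR bases lie. The region around a coding summit was coding over a median of 86.8% of its length, and 872 regions (39.7%) were wholly coding. Coding candidates overlapped another candidate in 8.02% of cases and 3' UTR candidates in 11.9%, against 17.9% over the list, so they were mostly separate regions.

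Few lay within 1 kb of a strong peak, but the rule bears on this. It keeps exon candidates away from starts, where 1224 of the 2420 optimal peaks lie. A summit of another optimal peak lay within 1 kb of 3.42% (2.73 to 4.26) of the coding and 2.55% (1.66 to 3.91) of the 3' UTR candidates. This compares with 6.52% of all candidates, 6.35% of those in introns and 4.16% of those in intergenic DNA. Within 2 kb the shares were 11.4% and 8.93%, against 13.6% of all, 14.2% in introns and 8.71% in intergenic DNA. All 26 optimal exon candidates were more than 1 kb from any other optimal peak, the nearest at 1608 bp. Starts of noncoding transcripts lay within 500 bp of 61 exon candidates, 2.05%, and 20 touched an annotated transposable element.

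Across the chromosome arms, chromosome 4 held exon candidates most densely and X least. Chromosome 4, the small and largely heterochromatic arm, had 54 coding and 23 3' UTR candidates, 210 and 234 per Mb, against 80.7 and 99.5 per Mb on X. The other arms lay between, from 117 to 128 per Mb in coding sequence and from 115 to 164 in 3' UTRs. Both replicates had their highest coding density on chromosome 4 (272 and 253 per Mb) and their lowest on X (143 and 113). X nonetheless carried 8 of the 21 optimal 3' UTR candidates, with 1.42 of the 6.083 Mb of eligible 3' UTR DNA. Chromosome 4 carried 1, that of Cals, in 0.0982 Mb. Densities of all candidates and of all optimal peaks by arm were not computed. Whether these differences are particular to exons was therefore not tested.

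Short sequence elements were counted within 100 bp of the summit on both strands, as letters and not as sites. The C/EBP-ATF response element bound by ATF4 with a C/EBP partner, spelled TGATGNAAC or TGATGNAAT, was in 0.957% (0.627 to 1.46) of the coding and 1.53% (0.878 to 2.66) of the 3' UTR windows, against 1.36% and 1.5% at every 50th eligible base of the same kind and 1.46% of all candidates. The exon candidates thus held it about as often as exon sequence in general. The promoter element DRE (TATCGATA) was in 0.0456% and 0.383%, against 0.178% and 0.525% of the positions. Motif 1 (GGTCACACT) was in 1 coding window and no 3' UTR window, against 0.086% and 0.0362% of the positions. Promoter candidates, which the rule leaves out, held them in 5.22% and 2.89% of cases. GAGAGAG was in 1.09% and 2.93%, against 1.06% and 2.55% of the positions.

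Trinucleotide repeats rich in G and C were more frequent. CAGCAGCAG was in 6.74% (5.77 to 7.87) of coding windows against 5.06% of coding positions, and CCGCCGC in 12% (10.7 to 13.5) against 7.03%. The residues encoded within 50 codons of the summit, for the 2134 coding candidates covered by the longest transcript of their gene, were richer in alanine (8.23% against 7.34% in all proteins) and glycine (6.78% against 6.05%), both by a ratio of 1.12. Glutamine was near its overall share (5.34% against 5.18%), and 98 candidates (4.59%) encoded 4 glutamines in a row nearby. Phenylalanine, isoleucine and lysine, whose codons are rich in A and T, were the least represented, at ratios of 0.904, 0.907 and 0.918.

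The element AGNTGGCGC has letters that resemble the core of the sequence bound by the fly insulator protein CTCF. It was chosen and counted after the strongest windows had been seen. Its counts among the optimal and strongest candidates include those windows, so they cannot show that it is tied to strong signal. Of the 26 optimal exon candidates 4 held it, those of otp, Pde1c, klar and Hr4, so 3 of the 5 in coding sequence, against 1.38% of the other optimal peaks. In all 56 exon candidates held it, 2.28% (1.73 to 2.99) of the coding windows against 1.16% of coding positions, and 0.765% (0.351 to 1.66) of the 3' UTR windows against 0.317%. Among 3' UTR candidates it was in 5 of the strongest 78 and in 1 of the other 706. Among coding candidates it was in 8 of the strongest 219 (3.65%, 1.86 to 7.04). It was in 42 of the other 1976 coding candidates (2.13%, 1.58 to 2.86), and these intervals overlap. The 3' UTR windows with it after Hr4 lay in the sodium channel gene para (44.28), CG9166 (41.96), the hexokinase gene Hex-A (39.55) and the calmodulin gene Cam (38.17). The polyadenylation signal AATAAA was in 41.5% (38.1 to 44.9) of 3' UTR windows against 45.4% of positions.

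The 2979 candidates lay in 2426 protein-coding genes, or 18.5% of the 13124 genes with any eligible exon base. Of these hosts 1985 (81.8%) held 1 candidate, 338 held 2, 76 held 3 and 27 held more. Coding candidates had 1919 hosts and 3' UTR candidates 700, with 193 genes holding both, and 28 candidates lay in exons of more than 1 gene. Exon candidates were therefore spread thinly over many genes.

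The host genes were long. Their median span was 4986 bp against 2166 bp for all 13945 protein-coding genes, a ratio of 2.302, and hosts of 3' UTR candidates had 7603 bp. The 13124 genes with eligible bases had 2323 bp. The rule itself favours length, because a short gene has few or no exon bases more than 500 bp from a start. Their median eligible exon length was 2502 bases against 1273 over all eligible genes. Sorted into 5 classes of eligible length, the share of genes that hosted a candidate rose from 3.46% in the shortest to 10%, 16%, 23% and 39.9% in the longest. Per eligible kb the density fell, from 0.138 candidates in the shortest class to 0.103 in the longest, so longer genes hosted more often without being more densely covered.

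Hosts more often had a candidate at a start of their own. Of the hosts 62.7% (60.8 to 64.6) did, against 46.9% of eligible genes and 43.3% (42.3 to 44.2) of those without an exon candidate, and 18.4% (16.9 to 20) had an optimal peak there against 10.5% (9.92 to 11.1). The difference was present at every length. In the shortest class 5.22% (3.91 to 6.93) of genes with a start candidate were hosts against 2.63% (1.98 to 3.48) without, and in the longest class 44.1% (41.7 to 46.5) against 33.2% (30.4 to 36.2). The strengths were only weakly related. Over the 1521 hosts with a start candidate the rank correlation of the strongest exon signal with the start signal was 0.0507. That with gene length over all hosts was 0.0336. Most exon signals span a narrow range, which lowers a rank correlation. The median strongest exon signal was 22.63 in hosts with no start candidate, 23.48 with one that was not optimal and 24.22 with an optimal one.

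**Figure D4:**
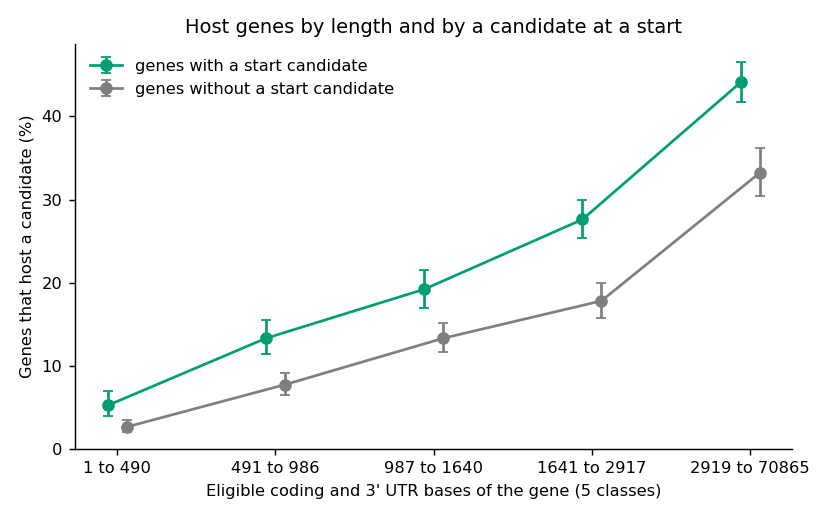
Percent of eligible genes that host a coding or 3' UTR candidate, by class of eligible exon length (bases on the x axis), for genes with and without a candidate at one of their starts; bars are Wilson 95% intervals. The share rises with length in both groups, to 44.1% and 33.2%, and the intervals of the groups are apart in each class.

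Few genes held many candidates. The 10 with the most are described here, the last 4 of them taken by symbol from 21 genes that held 4 each. The gene lola, which encodes a family of BTB zinc finger factors through many alternative last exons, held 8, of which 7 were coding and 1 in a 3' UTR. Their pooled signals ran from 23.48 to 39.58 and none was optimal, over 23603 eligible bases. The strongest 2, at 39.58 and 37.02, were near 20 in both replicates (18.35 and 18.34, 20.09 and 19.64). The lola start had a far higher signal of 225.3.

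The compact gene by held 6 in 4273 eligible bases, 1.4 per kb, the densest of the 10 genes with the most. Beside the optimal region at 231.7 its other signals ran from 19.67 to 44.28. The one at 44.28 had only 10.79 in replicate 1 and no replicate 2 summit within 100 bp. The candidate at 19.67, whose region overlaps it, had 27.31 in replicate 2 and no replicate 1 summit within 100 bp. The gene sm, for an hnRNP L-like RNA-binding protein, also held 6, of which 5 were in its 3' UTR, from 23.1 to 35.36. Glut4EF and Tdg, the gene of thymine DNA glycosylase, held 5 each, up to 34.15 and 29.92, and hlk held 5, up to 25.41. All 4 candidates of CG1888 were in its 3' UTR, at 66.95, 44.99, 38.35 and 37.72, below a start signal of 733.0. CG11155, CG12769 and CG32264 held 4 each, none above 29.08. Outside by and CG1888, none of these 10 genes held an optimal exon candidate.

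The gene lists below were drawn up with earlier results on these data known. Each share is read beside the 18.5% of all eligible genes. Longer genes hosted more often, so the eligible length or the density per kb is also given for most lists. Genes of other classes or of the wrong name were taken out of 4 lists after their values had been seen. RNA-binding protein genes hosted most often, 20 of 34 (58.8%, 42.2 to 73.6), with a median eligible length of 7319 bases. Their 45 candidates came to 0.178 per kb against 0.115 over all genes. The strongest lay in the 3' UTRs of the neuronal genes elav (45.53) and fne (42.35), in mub (41.71) and in sm (35.36), and none was optimal.

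Stress response genes, the class that ATF4 serves in mammals, hosted in 10 of 20 cases (50%, 29.9 to 70.1) at 0.216 per kb, and 95% of the list had a start candidate. The strongest were in Xbp1 (46.37), in the 3' UTR of scyl (38.48), a stress-induced inhibitor of TOR signalling, in PPP1R15 (28.88), which recruits phosphatase to eIF2alpha, and in the 3' UTR of aay (25.02), the last enzyme of serine synthesis. The eIF2alpha kinase genes Gcn2 (24.68) and PEK (23.17) were hosts as well. All of these exon signals but that of Xbp1 were under 40. The start signals of the same genes were higher but ranged widely. They were 32.18 at PPP1R15, 33.02 at Gcn2, 47.32 at PEK, 64.22 at scyl, 118.1 at Xbp1 and 263.8 at aay.

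The gene crc itself hosted 1 candidate by the rule (chr2L:21318551-21318950), labelled coding, 4391 bp from a start. Its pooled signal was 21.54, rank 18478. Replicate 1 had 19.56 and replicate 2 had no summit within 100 bp, against 49.43 for the pooled signal at a crc start.

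Both transcription factor lists were above the share of all genes, but their genes are long. The median eligible length was 3708.5 bases for zinc finger and other factors and 2263.5 for homeobox genes, against 1273 over all eligible genes. The former median lies in the longest class of genes, where 39.9% hosted. The latter lies in the class of 1641 to 2917 bases, where 23% did. Per kb these lists held 0.16 and 0.155 candidates, against 0.115 over all genes. Zinc finger and other factor genes hosted in 37 of 76 cases (48.7%, 37.8 to 59.7) with 63 candidates, led by pros (90.29), the ecdysone-induced Eip74EF (42.19), the forkhead gene bin (40.64) and lola (39.58). Homeobox genes hosted in 25 of 72 cases (34.7%, 24.8 to 46.2), led by otp (311.9), then hth (39.92), vvl (36.27) and mirr (32.85); pros, an atypical homeodomain gene, is counted in the first of these lists. Only 26.4% of the homeobox genes had a start candidate, fewer than the 46.9% of all eligible genes.

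Cell adhesion and guidance genes hosted in 23 of 51 cases (45.1%), led by NetB (71.68), the teneurin gene Ten-m (37.12), the E-cadherin gene shg (36.72) and robo1 (36.01). Extracellular matrix genes hosted in 7 of 16 (43.8%), led by the perlecan gene trol (33.3), and muscle genes in 10 of 24 (41.7%), led by the troponin C gene TpnC73F (41.76). Both of these lists were sparse per kb, at 0.0523 and 0.054, and their genes are long, with medians of 5688.5 and 3664 eligible bases. Signalling genes hosted in 18 of 44 (40.9%), led by the Wnt effector pan (35.26) and the insulin receptor InR (33.59). Cytoskeletal genes did in 12 of 29 (41.4%), led by the actin gene Act5C (36.17), and chromatin regulators in 13 of 38 (34.2%), led by Su(z)2 (35.03). The adhesion and guidance, cytoskeletal and chromatin lists were also under the 0.115 per kb of all genes, at 0.0845, 0.0877 and 0.0865. Their median eligible lengths were 6617, 1843 and 4542.5 bases. Signalling genes held 0.135 per kb, more than all genes, with a median of 3550.5 bases.

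Lists of basic metabolism and translation differed among themselves. Glycolysis genes hosted in 5 of 13 cases (38.5%, 17.7 to 64.5) at 0.289 per kb, the highest of the lists, with Pgi (39.93) and Hex-A (39.55) ahead of the aldolase gene Ald1 (25.22) and Pglym78 (23.26). Translation factors hosted in 6 of 21 (28.6%), led by eIF3b (34.04). Cytosolic ribosome genes, taken by symbol and so with their paralogs, did in 11 of 87 (12.6%, 7.21 to 21.2), led by RpL10 (32.08) and RpL15 (27.03), but with a median of 567 eligible bases they came to 0.207 per kb, above the 0.115 of all genes.

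A few lists had a low share of hosts. Histone genes hosted none in 73 eligible genes (0 to 5%), of which the median held only 94 eligible bases. Cuticle genes hosted in 6 of 126 (4.76%, 2.2 to 10) at 0.0768 per kb, led by Cpr47Ec (31.82). Odorant and gustatory receptor genes hosted in 5 of 119 (4.2%, 1.81 to 9.46) at 0.05 per kb, led by Gr61a (24.44). Both lists hold short genes, with medians of 512 and 714 eligible bases. These medians lie in the class of 491 to 986 bases, where 10% of genes hosted, and the density over all genes was 0.115 per kb. Of the receptor genes 3.36% had a start candidate. The remaining 3 lists were short, and their intervals included the 18.5% of all genes. Heat shock genes hosted in 3 of 20 (15%, 5.24 to 36), led by Hsp23 (27.02), yolk and fat body genes in 3 of 14 (21.4%, 7.57 to 47.6), led by the lipid droplet gene Lsd-2 (26.97), and eggshell genes in none of 7 (0 to 35.4%).

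**Figure D5:**
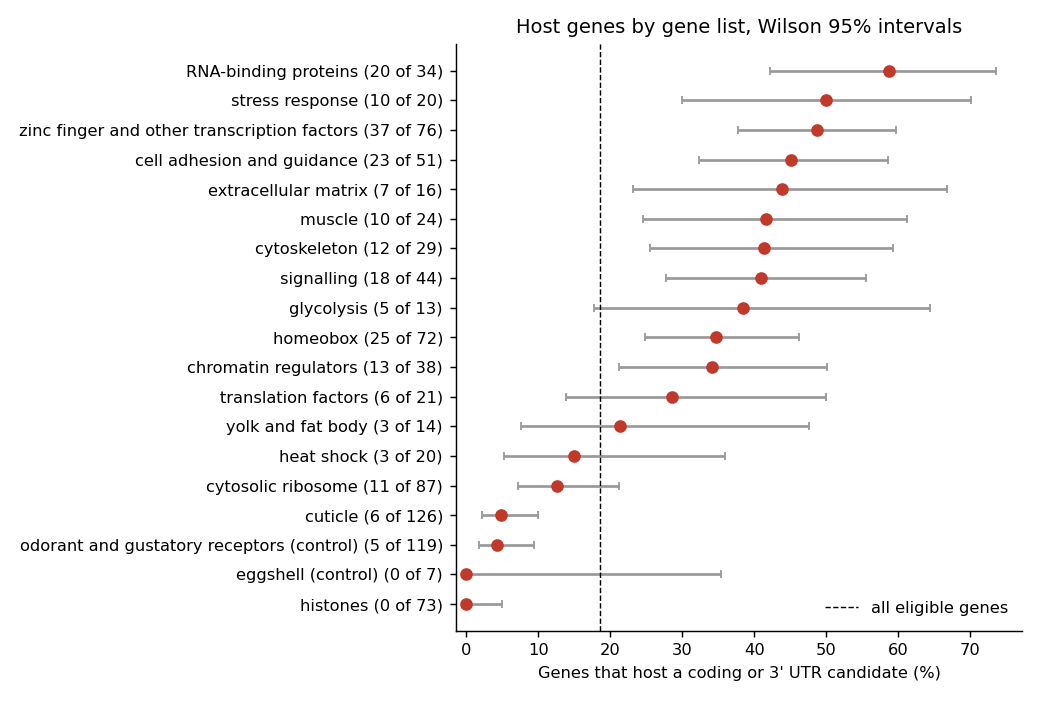
Percent of each list's eligible genes that host a coding or 3' UTR candidate (points), with Wilson 95% intervals and host counts in the row labels; the dashed line is the 18.5% of all eligible genes. RNA-binding protein genes are at 58.8%, and cuticle (4.76%) and receptor genes (4.2%) lie to the left of the line. Their median eligible lengths are 7319, 512 and 714 bases, against 1273 over all eligible genes.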

How the data were processed

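The candidate and optimal lists of the build dm6 were used as deposited, 4 in all, and the dm3 lists were not used. The signal is column 7 of the deposited lists. The authors' normalization, aligner and caller are each "not given in the sources used here", and the depth is unknown. Summits within 100 bp were matched between lists. Genes were those of Ensembl release 115 (BDGP6.54) and sequence that of Release 6. Densities divide by every eligible base, gaps and repeats included, and GC and elements were also scored at every 50th. Shares carry Wilson 95% intervals. With 1 group no test was run, and replicates are labelled as biological. The counting was tested on simulated data. The members and gene lists were chosen with earlier results of these data known. After values were seen, accessory gland genes were taken out of the cuticle list and ftz-f1, a nuclear receptor gene, out of the homeobox list, and the old symbols of nanos and Delta, first matched to other genes, were corrected. Named were the 15 strongest candidates of each kind, all optimal ones, the 10 genes with most candidates, up to 4 leading hosts of a list, and crc. The elements AGNTGGCGC, CCGCCGC and AATAAA, the windows shown with AGNTGGCGC, Cam, Gcn2 and PEK were chosen after values were seen. Protein sequences are not shown. Alternatives varied the distance to a start, the match distance, the list's depth and the replicate. Python 3.11.15, numpy 2.4.6, pandas 2.3.3, scipy 1.17.1 and matplotlib 3.10.9 were used.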

Additional observations from a re-analysis of the deposited data

How the results depend on the processing

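Of the recomputed values 25 moved by more than the spread between the replicates' own lists, or beyond the interval of a share or 1.5 times a count where these apply. That spread is wide, so the other 37 also differ: with starts within 200 or 1000 bp ending membership there were 3597 and 2183 exon candidates, and 67.68% and 64.55% of hosts had a start candidate. As first matched, with misplaced genes, the hosting shares were 61.8% of RNA-binding, 35.6% of homeobox, 43.2% of signalling and 5.22% of cuticle genes. Kept to the stronger candidates of the pooled list, 827 exon candidates remained, with 28.93 coding and 46.03 3' UTR candidates per Mb, 50.06% in both replicates and a median coding GC of 56.22%. Matching summits within 50 or 200 bp gave 13.9% and 29.61% in both, against 21.35%. With starts within 200 or 1000 bp ending membership, the ratio of gene lengths was 1.877 and 3.313 and the share within 1 kb of an optimal peak 3.781% and 1.099%, and at 1000 bp 1.099% were optimal. Within 2 kb of an optimal peak lay 10.78%. In the replicates' own lists the exon candidates numbered 3700 to 5065, and 0.6486 to 0.77% of them were among the strongest 2420 regions, against 8.07% of all. There the ratio of median signals was 0.832 to 0.9267, the densities 134.5 to 214.4 coding and 166.2 to 190.2 3' UTR candidates per Mb, the median coding GC 54.23 to 54.73% and the length ratio 2.139 to 2.205. The share of hosts with a start candidate was 54.44 to 70.66%, and 2.744 to 3.189% lay within 1 kb of an optimal peak. The share in both replicates has no value without one of them. No paired analysis was possible because there is 1 group, so replicate numbers pair no samples across groups. The cause of these shifts was not tested. Read depth is unknown, the replicate lists end at 30000 regions, so a region absent from one may lie just below its end, and the control file was not analysed here. Where a summit lies in exons of several genes or transcripts, the assignment follows the annotation and not the signal.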

Other observations

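Of the 21 genes that held 4 exon candidates each, 5 more were looked at after their values were seen. Cals, the calsyntenin gene on chromosome 4, had 3 in its 3' UTR, the optimal one at 221.9 among them, and no candidate at a start. Myc, the growth-promoting transcription factor gene, held 3 in its 3' UTR and 1 in coding sequence, the strongest at 44.46, also with no candidate at a start; all 3 in the 3' UTR lie in an exon of the overlapping gene CG12535 as well. Larp4B, which encodes an RNA-binding protein of the La family, held 2 of each kind, up to 44.44, with 52.2 at a start. The zinc finger gene peb held 4, up to 23.81, with 60.39 at a start. The candidates of corto, at most 27.35, were all 4 in its 3' UTR.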
